A study of Danio rerio with 4 samples.

Results

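The genes described here encode the machinery that copies DNA and the machinery that separates the copies at cell division. They were chosen by their symbols in the array's annotation, which took in the pre-replication complex, the replicative helicase, the sliding clamp, RPA and ribonucleotide reductase. On the side of division it took in cyclins, mitotic kinases, the spindle checkpoint, centromere proteins, condensin, cohesin, topoisomerase II and kinesins. The choice gave 83 of 8793 named genes, read by 117 of 15617 probe sets. Brain RNA of zebrafish embryos was measured at 36 h, in wild type on 1 array and in foggy mutants on 3 arrays. The mutant labels give 36 without a unit, read here as hours. The foggy locus encodes Spt5 (supt5h), which binds RNA polymerase II and acts both in its pausing and in elongation. The labels do not state the allele, whether embryos were pooled, or whether the mutant samples came from separate clutches, so the spread behind the p-values is that between arrays and may be technical.

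Before S phase, the origin recognition complex and Cdc6 load the Mcm2 to Mcm7 helicase onto origins. Cdc45 and the GINS complex then join it to form the active helicase, while PCNA, loaded by replication factor C, holds the polymerases on DNA. At mitosis, cyclin B with Cdk1 drives entry, condensin and topoisomerase II compact and untangle chromosomes, cohesin holds sister chromatids together, and kinesin motors build the spindle. In the embryonic brain many of these genes are most active in the dividing progenitors along the ventricles, while others, among them cohesin, top2b and the transport kinesins, also serve cells that no longer divide.

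The values are array intensities on a linear scale that were scaled between arrays before deposit. Differences are foggy minus wild type on the scale of log2(intensity + 16.252). Probe sets were tested with limma across the 10851 that were not dim, and a call is a Benjamini-Hochberg adjusted p under 0.05. Of the 117 member probe sets, 104 were tested, for 79 genes. The 13 others lay between 1.72 and 32.1 intensity units in all arrays. Only mcm6l, mcm9, ccna1 and ccnb1l had no tested probe set. A gene with several tested probe sets is counted by the one with the highest mean. The genes fell into 29 of replication, 40 of mitosis, 4 of the entry into S phase and 6 kinesins with roles outside mitosis. The symbol rule took in these kinesins although their best known roles lie in transport, cilia and neurons. The groups are not strict. With mitosis are counted plk2b, smc5, mad2l2 and top2b, which have roles elsewhere, while kif2a, which also acts at spindle poles, is counted outside it.

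For supt5h the intensity was 210 in wild type versus 258, 245 and 254 in the foggy arrays, which does not check the labels, because the transcript of a mutant allele can keep its level. Summed signals of 24 brain marker genes were 21736 in the wild-type array and between 21131 and 21583 in the foggy arrays, and 23 of them lay above the pseudocount in each array. Of the 23 that were tested, 4 were called higher and 2 lower. That is 26.1% of them, against 5.50% of all tested probe sets, so the near-equal sums do not show unchanged brain markers. Signals of other tissues were lower in the foggy arrays. The sum over 17 skeletal muscle markers was 8232 against 3178 to 3398. The sum over 10 red blood cell markers was 6792 against 1673 to 1824, and that over 10 lens and photoreceptor markers was 6155 against 3354 to 3593. Of the tested markers, 14 of 17, 6 of 7 and 8 of 8 were called lower, and the part these tissues had in the results below was not tested. In such bulk RNA, fewer cells of a type and less RNA per cell cannot be told apart.

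Of all 79 genes 2 rose and 0 fell in the foggy mutants, and 77 did not pass. Both genes that rose encode kinesins. They were kif5aa, for a motor of axonal transport, and kif4, for a motor that binds chromosome arms and the central spindle. The kif4 call (adjusted p = 0.0496 by limma) was lost without foggy array 2 or array 3 and under 6 of 9 other settings, and the kif5aa call with no variance trend or a doubled wild-type SD. Among all tested probe sets 2.36% were called higher and 3.14% lower, 5.50% in all, against 2.53% of the 79 genes. The median log2 difference was +0.06 over the genes and +0.02 over all tested probe sets, and the genes' extremes were -0.36 and +0.48. At an unadjusted p under 0.05 lay 13 genes on the higher side and 3 on the lower, 20.3% of the genes against 20.6% of all tested probe sets.

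Of the 29 replication genes 0 were called in limma's test. At an unadjusted p under 0.05, 2 were higher (rpa1 and gins3) and 3 were lower (mcm2, mcm6 and rrm1). Their median difference was +0.03, with +0.04, -0.02 and +0.08 in foggy arrays 1, 2 and 3 taken singly. On the tested scale the 95% interval excluded a change of 1.5-fold in either direction for 26 of the 29, or 89.7%. Of all tested probe sets 78.9% did so. Taken back to intensity the limits lie further out, past 1.5-fold for some of these genes, such as cdc45. These intervals also take the single wild-type array to vary like the foggy arrays. The wild-type array lay outside the range of the foggy arrays for 18 of them, 10 with all foggy arrays above it and 8 below. Of all tested probe sets 64.6% did so, 36.2% above and 28.4% below. The share of 62.1% for the replication genes was near that of the whole array. On the tested scale gins3 lay at least 1.2-fold above the wild type in every foggy array, and mcm6 at least 1.2-fold below. Of all tested probe sets 5.18% and 5.82% did so. By intensity alone, gins1 and orc1 also lay at least 1.2-fold above the wild type in every foggy array.

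**Figure D1:**
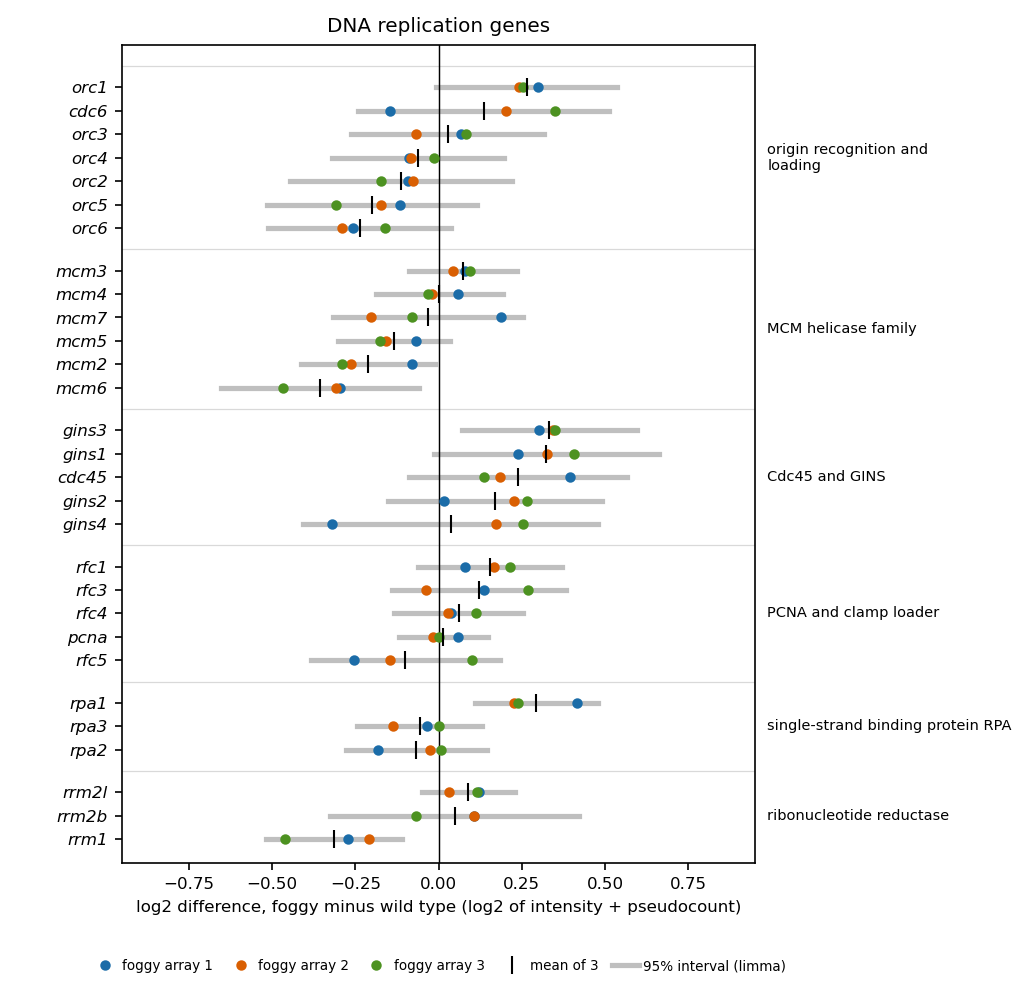
Log2 difference from the wild-type array (x axis) of each replication gene (y axis, grouped by role), with a coloured point for each foggy array, a black tick for their mean and a grey bar for limma's 95% interval. The 29 means lie between -0.36 and +0.33, and within a role some genes lie on each side of 0 except for Cdc45 and GINS.

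Origin recognition and loading genes lay on both sides of the wild type. Of 7 genes 0 were called, 3 lay above 0 and 4 below, with a median of -0.06. The gene orc1, for the largest subunit of the origin recognition complex, read 85.3 in wild type versus 109, 104 and 105 in the foggy arrays, all above it. Its difference was +0.26 (SE 0.122, adjusted p = 0.256). At the other end orc6, for the smallest subunit, read 122 in wild type versus 99.4, 96.8 and 108 in the foggy arrays, all below it, a difference of -0.24 (SE 0.123, adjusted p = 0.315). Neither passed the test. The helicase loader cdc6 read 129 in wild type versus 115, 151 and 169 in the foggy arrays, so the wild-type value lay within the mutants' range. The remaining subunits orc2, orc3, orc4 and orc5 had differences of -0.11, +0.03, -0.06 and -0.20.

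The genes of the Mcm2 to Mcm7 ring lay mostly below the wild type, although 0 were called. Of 6 measured genes 4 lay below 0, and the median was -0.08. Above 0 lay 33.3% of them, against 54.6% of all tested probe sets. The gene mcm6 read 116 in wild type versus 91.5, 90.5 and 79.5 in the foggy arrays. Its difference was -0.36 (SE 0.134, adjusted p = 0.162), the lowest of all 79 genes, with all 3 foggy arrays below. The gene mcm2 read 567 in wild type versus 535, 469 and 460 in the foggy arrays, for a difference of -0.21 (SE 0.0906, adjusted p = 0.219). The gene mcm5 read 539 against 514, 481 and 474, a difference of -0.13 (adjusted p = 0.352). These 3 genes had all foggy arrays below the wild type, by margins smaller than the test's threshold asks. They are 50% of the 6 measured genes, against 28.4% of all tested probe sets. The other members of the ring showed no such separation below the wild type in the probe set by which each is counted. The gene mcm4 read 269 against 281, 265 and 263, with an interval from -0.19 to +0.19. The gene mcm7 read 361 against 414, 312 and 341, with the wild-type value inside the mutants' range. For mcm3 the brighter probe set had a difference of +0.07 and the dimmer one -0.19, so its probe sets disagreed in sign. All foggy arrays were above the wild type in the brighter one. In the dimmer one they were all below, at 116, 130 and 134 against 147.

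Cdc45 and the GINS subunits, which complete the active helicase, lay above 0 in 5 of 5 genes, against 54.6% of all tested probe sets. Their median was +0.24, and 0 were called. The gene gins3 read 89.5 in wild type versus 114, 118 and 119 in the foggy arrays, all at least 1.2-fold above it on the tested scale. Its difference was +0.33 (SE 0.117, adjusted p = 0.139). The gene gins1 read 46.3 against 57.5, 62.2 and 66.6, a difference of +0.32 (SE 0.151, adjusted p = 0.262). For cdc45 the values were 73.3 against 102, 85.4 and 82.1, a difference of +0.24 (SE 0.147, adjusted p = 0.40). In these genes and in gins2 (+0.17) the foggy arrays were all above the wild type. They are 80% of the 5 genes, against 36.2% of all tested probe sets. The exception was gins4, which read 107 against 82.8, 123 and 131, a difference of +0.04. Its sign turned without foggy array 2 (-0.03) and without foggy array 3 (-0.07). The partners of 1 enzyme, the Mcm ring and Cdc45 with GINS, thus had medians on opposite sides of 0, -0.08 and +0.24. In foggy arrays 1, 2 and 3 the ring's medians were -0.0045, -0.18 and -0.13, so in array 1 it was near 0. Those of Cdc45 with GINS were +0.24, +0.23 and +0.27. The difference between these small groups of genes was not tested.

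The sliding clamp did not pass the test, and its difference was close to 0. The gene pcna, a common marker of dividing cells, read 3238 in wild type versus 3370, 3203 and 3242 in the foggy arrays. The wild-type value lay within the mutants' range, and the 95% interval of the difference ran from -0.12 to +0.15. The clamp loader genes rfc1, rfc3, rfc4 and rfc5 had differences of +0.15, +0.12, +0.06 and -0.10, with 0 called. The extremes were rfc1, which read 184 in wild type versus 196, 209 and 217 in the foggy arrays, and rfc5, which read 259 against 215, 233 and 279. All foggy arrays were above the wild type in the first and straddled it in the last.

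RPA coats single-stranded DNA as a complex of the products of rpa1, rpa2 and rpa3, and only rpa1 differed by more than 0.1. It read 696 in wild type versus 933, 817 and 824 in the foggy arrays, all above. The difference was +0.29 (SE 0.0831, 1.23-fold, adjusted p = 0.0744) and did not pass with all arrays, although it passed when any 1 foggy array was left out (adjusted p = 8.07e-04, 0.0435 and 0.0461 without array 1, 2 and 3). The differences of rpa2 and rpa3 were -0.07 and -0.06, with intervals from -0.28 to +0.14 and from -0.24 to +0.13. A fit without 1 mutant array has 1 residual degree of freedom fewer, and its passes rest on a smaller sample of the spread.

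Ribonucleotide reductase makes the deoxynucleotides for replication from a large subunit, encoded by rrm1, and a small one. The gene rrm1 read 1088 in wild type versus 898, 939 and 786 in the foggy arrays, all below. Its difference was -0.31 (SE 0.0915, 1.24-fold lower, adjusted p = 0.0808), not a call with all arrays. It passed without foggy array 1 (adjusted p = 1.49e-04) and without foggy array 2 (0.0214), and not without array 3 (0.162). The small subunit gene rrm2l read 1853 in wild type versus 2015, 1895 and 2010 in the foggy arrays, a difference of +0.09 (interval from -0.05 to +0.23). The p53-inducible small subunit of mammals has its zebrafish counterpart in rrm2b, which read 37.1 against 41.2, 41.2 and 34.7. The difference of rrm2b was +0.05 (interval from -0.32 to +0.42). The large and small subunit genes thus had differences of opposite sign. However, the intervals of both small subunit genes ran from below to above the wild type, and the contrast was not tested.

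The genes that govern entry into S phase had differences close to 0. Of 4 genes 0 were called, and all 4 differences lay between -0.07 and +0.04. The cyclin D gene ccnd1, which carries growth signals into the cycle, read 1433 in wild type versus 1486, 1521 and 1414 in the foggy arrays. Its small difference of +0.04 turned to -0.01 under cyclic loess normalization. The dimmer ccnd1 probe set read 986 against 1044, 929 and 893, a difference of -0.05, so the 2 disagreed in sign. The cyclin E gene ccne1 read 75.1 against 72.2, 77.6 and 82.3, and its difference of +0.03 was -0.0041 without foggy array 3. The S phase cyclin ccna2 read 427 against 400, 425 and 393, a difference of -0.07 with all foggy arrays below. The kinase cdk2 read 332 against 337, 342 and 329. For all 4 genes the 95% interval excluded a 1.5-fold change on the tested scale.

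Of the 40 mitosis genes 1 rose (kif4), 0 fell and 39 did not pass. At an unadjusted p under 0.05 lay 9 genes, all higher in the mutant. They were kif4, cdc25b, ncapd3, smc3, ncapg, kif20a, cenpe, kif11 and plk4, though another kif20a probe set lay below the wild type. Their share of 22.5% stood beside 20.6% of all tested probe sets, of which 11.7% were higher and 8.89% lower. The median difference was +0.12 over the mitosis genes, against +0.03 over the replication genes and +0.02 over all tested probe sets. It was +0.12, +0.07 and +0.05 in foggy arrays 1, 2 and 3, against +0.04, -0.02 and +0.08 for the replication genes, so in array 3 the order was the other way. The mitosis median was +0.05 without foggy array 1 and +0.08 without array 3, and it was +0.09 with the mean of all probe sets of a gene. All foggy arrays lay above the wild type for 19 genes (47.5%) and below it for 9 (22.5%), against 36.2% and 28.4% of all tested probe sets. At least 1.2-fold from the wild type in every foggy array were kif4, ncapd3 and kif20a above and plk2b below.

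**Figure D2:**
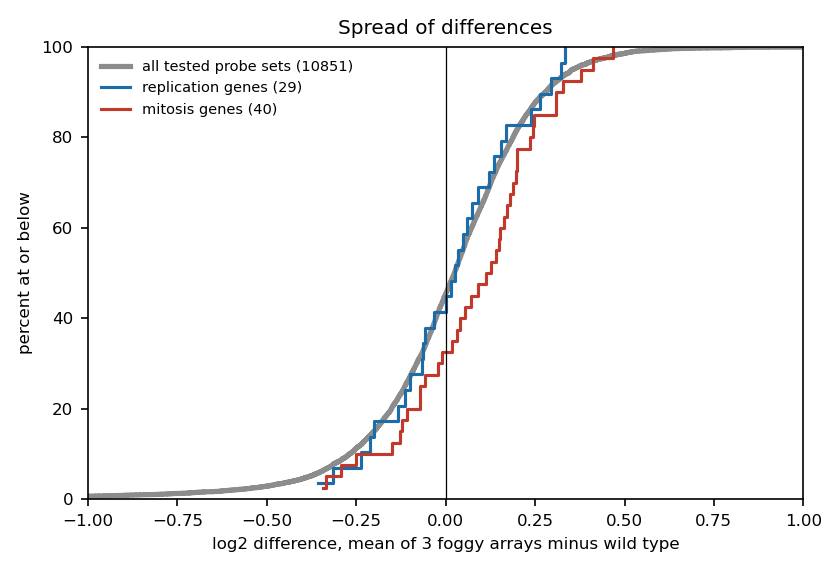
Percent of genes or probe sets (y axis) at or below each log2 difference between the mean of the 3 foggy arrays and the wild-type array (x axis), with all 10851 tested probe sets in grey, 29 replication genes in blue and 40 mitosis genes in red. The blue line runs along the grey one and the red line lies to its right near the middle, with medians of +0.03, +0.02 and +0.12 for replication, all probe sets and mitosis.

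Of 5 genes that switch mitosis on 0 were called, with a median of -0.01. By difference cdk1 and ccnb1 lay near the wild type, ccnb2 below it and cdc25b above it in all probe sets. The probe sets of ccnb3 lay on both sides. The kinase cdk1 read 461 in wild type versus 456, 459 and 457 in the foggy arrays, with an interval from -0.17 to +0.15. The cyclin gene ccnb1 read 465 against 458, 489 and 480 (interval from -0.13 to +0.19). The foggy arrays all lay just below the wild type for cdk1, with a difference of -0.01, and on both sides of it for ccnb1. The gene ccnb2 read 113 against 79.1, 90.3 and 100, all below, a difference of -0.29 that did not pass (SE 0.144, adjusted p = 0.284). The phosphatase gene cdc25b, whose product removes the inhibitory phosphates from Cdk1, had the same direction in each of its 3 probe sets. The brightest probe set gave 396 in wild type versus 464, 500 and 522 in the foggy arrays, for a difference of +0.31 (SE 0.0821, adjusted p = 0.0598). The others read 112 against 147, 167 and 146 (+0.40, adjusted p = 0.0862) and 199 against 231, 228 and 225 (+0.19, adjusted p = 0.269). In each of the 3 probe sets all foggy arrays were above the wild type, as in 36.2% of all tested probe sets. The 3 were read on the same arrays and are not independent, and 0 of them passed with all arrays. Without foggy array 1 the brightest passed (adjusted p = 6.02e-05), and without arrays 2 or 3 it did not (0.0906 and 0.140).

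Polo and Aurora kinases gave values on each side of 0, with 0 of 5 called. The gene plk1, for the main mitotic Polo kinase, read 495 in wild type versus 541, 507 and 513 in the foggy arrays, a difference of +0.07. The Aurora A gene aurka read 240 against 235, 237 and 218, a difference of -0.06. The centriole duplication kinase plk4 read 74 against 104, 87.4 and 100, all above, with a difference of +0.33 (SE 0.139, adjusted p = 0.214). The gene plk2b, a Polo kinase whose mammalian counterpart responds to stress and neuronal activity, read 48.6 against 34.9, 34.6 and 35.1. The foggy arrays were alike and all at least 1.2-fold below the wild type, and its difference of -0.34 (SE 0.160, adjusted p = 0.259) did not pass. The gene plk3 was level, with a difference of +0.02.

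The spindle checkpoint delays the separation of chromosomes until all are attached, and of its 6 measured genes 0 were called. The median was -0.02. The gene mad2l1 read 369 in wild type versus 410, 398 and 404 in the foggy arrays, +0.13 with all arrays above. The gene bub3 read 259 against 330, 272 and 287 (+0.18, adjusted p = 0.381), and its dimmer probe set differed by less than 0.01. The checkpoint kinase-like gene bub1bb read 40.5 against 32.2, 29.3 and 25.1, a difference of -0.33 (SE 0.176, adjusted p = 0.323). The checkpoint's target cdc20, which activates the anaphase-promoting complex, read 264 against 258, 222 and 275. The wild-type value was inside the mutants' range for cdc20, bub1ba (-0.12) and mad2l2 (+0.04), whose product also works in DNA repair.

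All 4 centromere protein genes lay above 0, as did 54.6% of all tested probe sets, with a median of +0.22 and 0 called. The wild-type array lay outside the range of the foggy arrays for 50% of them, against 64.6% of all tested probe sets. The gene cenpe, for a kinetochore motor, read 211 in wild type versus 302, 256 and 241 in the foggy arrays, all above. Its difference was +0.31 (SE 0.118, adjusted p = 0.168). The gene cenpk, for a part of the inner kinetochore, read 71.7 against 79.0, 91.5 and 94.0 (+0.24, adjusted p = 0.368). The gene cenpt, which links centromeric chromatin to the outer kinetochore, read 63.1 against 73.0, 62.1 and 69.8 (+0.09), and the groups overlapped. The foggy arrays disagreed over cenps, at 52.4, 31.4 and 33.6 against 31.7.

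Of the 8 condensin and topoisomerase II genes 0 were called and 5 lay above 0, all of condensin. That is 62.5%, against 54.6% of all tested probe sets. The gene ncapd3, for a subunit of condensin II, read 126 in wild type versus 166, 169 and 185 in the foggy arrays. All were at least 1.2-fold above the wild type, and the difference was +0.41 (SE 0.107, 1.33-fold, adjusted p = 0.0556), a miss of the threshold. The gene ncapg, of condensin I, read 411 against 460, 476 and 487, a difference of +0.20 (SE 0.0731, adjusted p = 0.155). The foggy arrays were all above the wild type in both. The other condensin I subunit gene ncaph read 121 against 130, 142 and 165 (+0.23, adjusted p = 0.363). The genes of the ATPases shared by both condensins, smc2 and smc4, had differences of +0.14 and +0.15. The condensin II gene ncapg2 was the exception, at 80.4 against 78.8, 67.4 and 74.4 (-0.11). Of topoisomerase II genes, top2a, the form of dividing cells, read 122 against 104, 86.1 and 111 (-0.25, adjusted p = 0.370). The form that neurons also use, top2b, read 736 against 788, 666 and 725 (-0.02). Without foggy array 1, the condensin genes ncapd3, ncapg, ncaph and smc2 passed (adjusted p = 0.00220, 0.00924, 0.050 and 0.0446), in a fit that called 10.9% of all tested probe sets higher and 8.09% lower, and 0 of them passed without array 2 or array 3.

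The cohesin gene smc3 read 721 in wild type versus 888, 868 and 822 in the foggy arrays, all above. Its difference was +0.25 (SE 0.0688, adjusted p = 0.0712) and passed without foggy array 1 (0.00152), but not without array 2 (0.144) or array 3 (0.0929). Its partner in the cohesin ring, smc1al, read 740 against 686, 720 and 704, a difference of -0.07 with an interval from -0.22 to +0.08. That is the brightest of the 5 smc1al probe sets, which ran from -0.31 to +0.31, so no direction is given for this subunit. The gene smc5, for a complex that serves DNA repair, read 92.6 against 109, 105 and 90.9 (+0.11), and the groups overlapped.

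Of 9 mitotic kinesins 1 rose and 0 fell, and the median was +0.17. Above 0 lay 8 of them (88.9%), against 54.6% of all tested probe sets. Among these 8, kif20a and kif2c each also had a probe set below 0. The gene kif4 read 123 in wild type versus 162, 174 and 195 in the foggy arrays, all at least 1.2-fold above. The difference was +0.47 (SE 0.118, 1.38-fold, limma adjusted p = 0.0496). This call lay at the threshold. It was lost without foggy array 2 (adjusted p = 0.0527) or array 3 (0.0875) and under 6 of the 9 other settings, with adjusted p from 0.0533 to 0.962 there. A dimmer kif4 probe set read 27.2 against 42.2, 28.1 and 18.7, a difference of +0.05 whose interval, from -0.52 to +0.62, holds both 0 and the difference of the brighter one.

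The other mitotic kinesins did not pass. The gene kif11, for the motor that pushes spindle poles apart, read 640 in wild type versus 709, 738 and 718 in the foggy arrays, all above. Its difference was +0.17 (SE 0.0658, adjusted p = 0.174). The gene kif20a, needed for cytokinesis, read 47.9 against 68.9, 66.2 and 66.4 (+0.38, SE 0.143, adjusted p = 0.164). Its other probe set, of similar signal, read 67.8 against 61.7, 64.4 and 51.0 (-0.16), so its readings disagreed in direction. The genes kif20bb, kif18a, kif14, kif23 and kif2c had differences of +0.20, +0.20, +0.16, +0.15 and +0.06, and kif15, a spindle motor that backs up Kif11, had the negative one (-0.13).

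**Figure D3:**
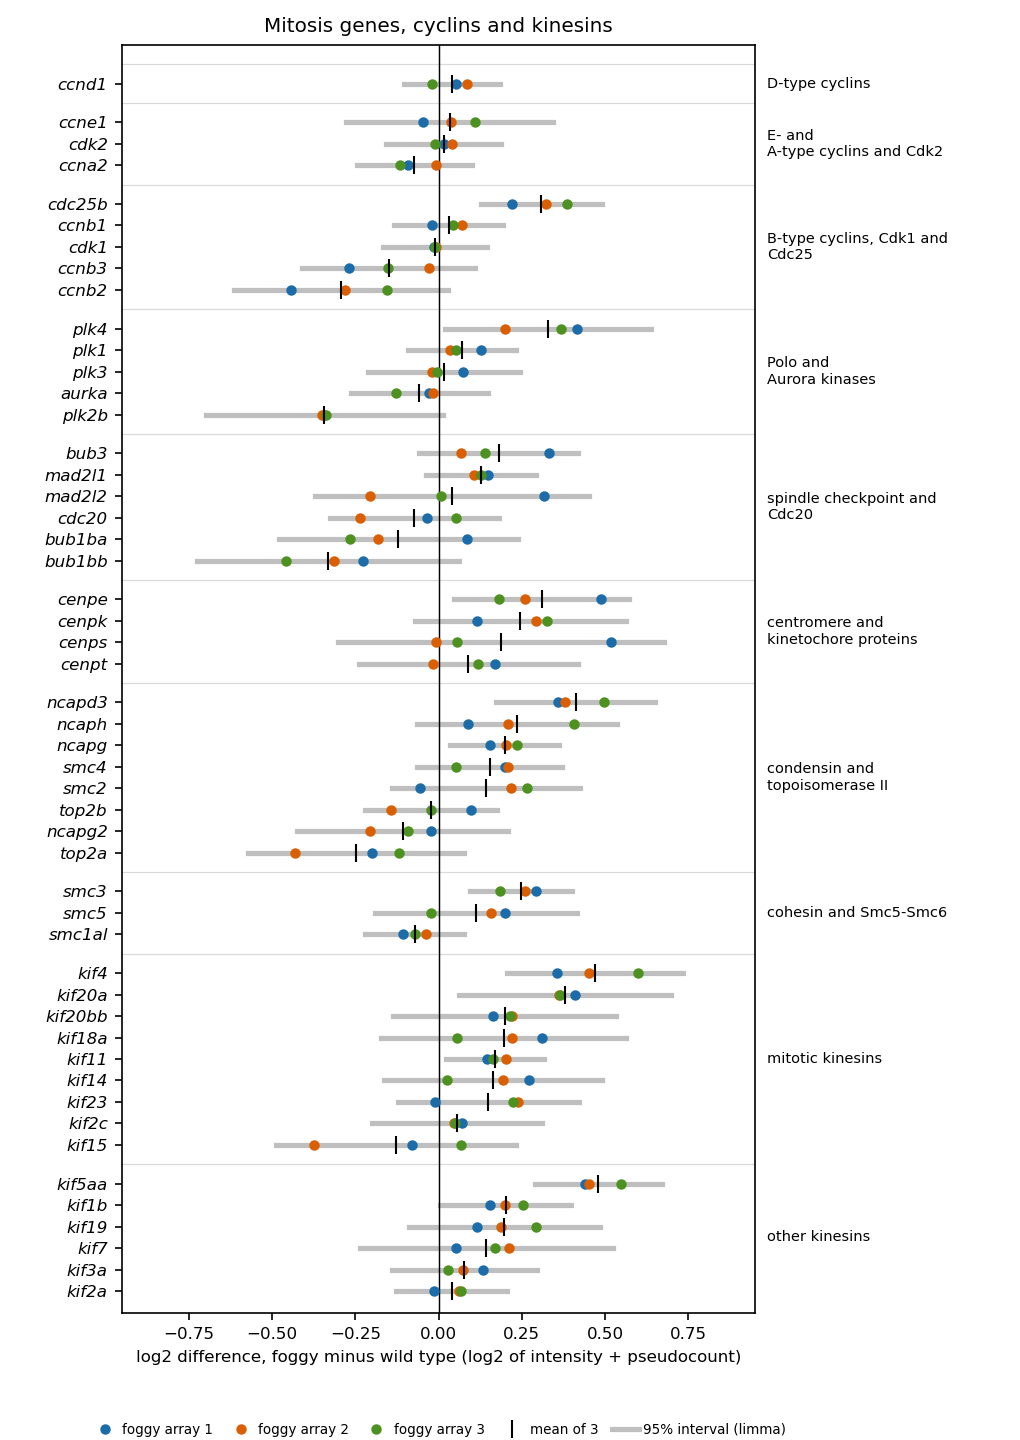
Log2 difference from the wild-type array (x axis) of each mitosis gene, S phase entry gene and other kinesin (y axis, grouped by role), with a coloured point for each foggy array, a black tick for their mean and a grey bar for limma's 95% interval. The points of cdk1, cdk2 and ccnd1 lie near 0, those of kif4, ncapd3 and kif5aa lie to the right in all 3 arrays, and 8 of 9 mitotic and 6 of 6 other kinesins have means above 0.

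The smallest p among the 79 genes belonged to a kinesin of axons. The gene kif5aa, for the heavy chain of kinesin-1 that carries cargo along neuronal microtubules, read 220 in wild type versus 305, 307 and 330 in the foggy arrays. It rose by 0.48 on the log2 scale (SE 0.0859, 1.40-fold, limma adjusted p = 0.0112), with a 95% interval from +0.29 to +0.67. All 3 foggy arrays lay at least 1.2-fold above the wild type, and the call held without any 1 of them (adjusted p = 1.26e-05, 0.00804 and 0.0107). A fit with no variance trend lost it (adjusted p = 0.103), as did a fit that gave the wild-type array 2 times the SD of the mutants (0.530). The gene kif1b, for a motor of synaptic vesicle precursors and mitochondria, read 220 against 247, 255 and 265 (+0.20, SE 0.0882, adjusted p = 0.228). The genes kif19, kif7, kif3a and kif2a had differences of +0.20, +0.14, +0.08 and +0.04. Of these, kif3a and kif7 are known for cilia and Hedgehog signalling, and kif2a takes microtubule ends apart in neurons and at spindle poles. All 6 kinesins outside mitosis had differences above 0, as had 54.6% of all tested probe sets, and 5 of the 6 had all foggy arrays above the wild type, against 36.2% of all tested probe sets.

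**Figure D4:**
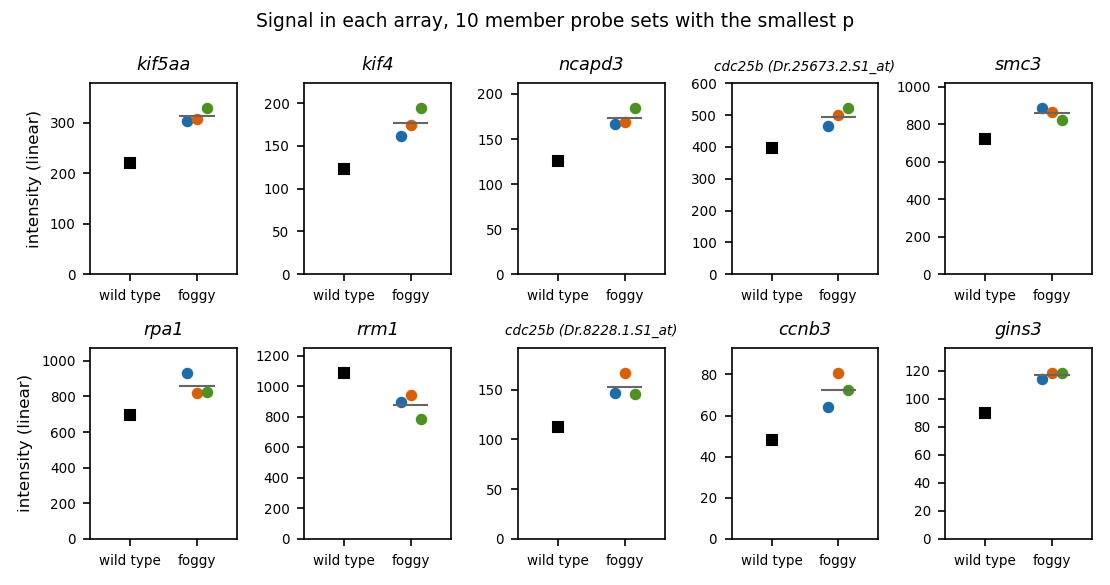
Linear array intensity (y axis, starting at 0 in each panel) in the wild-type array (black square) and in foggy arrays 1, 2 and 3 (blue, orange and green points, grey line at their mean) for the 10 member probe sets with the smallest p. In all 10 the foggy points lie on one side of the wild-type square, below it for rrm1 and above it for the rest. Choice by smallest p favours such separation, which 64.6% of all tested probe sets also showed. The genes that passed the test are kif5aa and kif4.

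More genes passed without foggy array 1. Over all tested probe sets the log2 differences between arrays 2 and 3 had an SD of 0.158, against 0.192 and 0.196 for the pairs with array 1. In the fit without it 6 replication genes passed, with gins3 and rpa1 higher and mcm2, mcm5, mcm6 and rrm1 lower (adjusted p from 1.49e-04 to 0.0443). The mitosis genes gave 8 passes, all higher, namely cdc25b, smc3, kif4, kif11 and the 4 condensin genes above. These are 20.7% and 20% of the genes, against 19.0% of all tested probe sets, so the share called in either direction was near the background. By direction, the fit called 10.9% of all tested probe sets higher and 8.09% lower, while the mitosis passes were all higher. That one-sidedness was not tested. Without foggy array 2 the replication genes gave 2 calls (rpa1 and rrm1) and the mitosis genes 0. Without foggy array 3 they gave 1 (rpa1) and 0, against 5.22% and 5.61% of all tested probe sets in those fits.

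Several members were read by more than 1 tested probe set, and these often disagreed. Of 16 such genes 7 had all probe sets on the same side of 0 and 9 did not. The cyclin gene ccnb3 had 4 probe sets between -0.15 and +0.46. Its highest came from a probe set that read 48.1 in wild type versus 64.0, 80.9 and 72.3 in the foggy arrays (adjusted p = 0.129), while the brightest read 184 against 150, 181 and 164. The gene smc1al had 5 probe sets between -0.31 and +0.31, and top2a had 4 between -0.30 and +0.19. The brightest ccnb3 probe set carries the suffix that the manufacturer gives to probes that may bind other transcripts. Those counted for ccnb1 and top2b, and the top2a probe set at -0.30, carry a suffix for probes shared by several transcripts. For the 9 genes whose probe sets disagreed (bub3, ccnb3, ccnd1, kif20a, kif2c, mcm3, rfc4, smc1al and top2a) a direction cannot be given. In cdc25b, ncaph, smc2, kif15, kif23, kif4 and top2b the probe sets kept to 1 side.

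**Figure D5:**
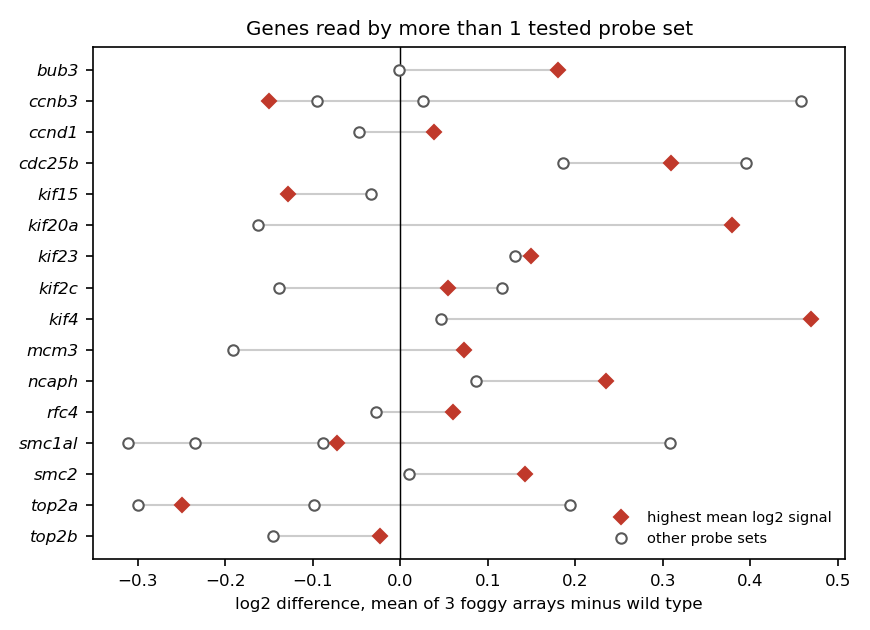
Log2 difference between the mean of the 3 foggy arrays and the wild-type array (x axis) for every tested probe set of the 16 genes with more than 1 (y axis), with the probe set of highest mean signal as a red diamond and the others as open circles. The 3 points of cdc25b all lie right of 0, and those of ccnb3, smc1al, top2a and kif20a spread to both sides.

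Other genes of both pathways, on lists written without the members, were as sparse in calls. Of 43 further replication genes 1 rose, 0 fell and 42 did not pass, with a median of +0.05. The share called was 2.33%, against 5.50% of all tested probe sets. The gene that rose was slbp, whose product binds the stem-loop of histone mRNAs and is needed for histone supply in S phase. It read 510 in wild type versus 660, 639 and 638 in the foggy arrays, a difference of +0.33 (SE 0.0673, 1.26-fold, limma adjusted p = 0.0205), and the call held without any 1 foggy array (6.67e-05, 0.0306 and 0.0328). The next by p were ticrr, a replication initiation factor, at 62.3 against 92.7, 88.2 and 83.1 (+0.41, adjusted p = 0.118), and pola1, the catalytic subunit of polymerase alpha, at 103 against 126, 135 and 122 (+0.27, adjusted p = 0.217). In all 3 genes every foggy array was above the wild type, as in 36.2% of all tested probe sets. Their choice by p favours such separation. Of 68 further mitosis genes 0 were called, and the median was +0.09. At an unadjusted p under 0.05 lay 13 on the higher side and 2 on the lower, 22.1% of the list against 20.6% of all tested probe sets, of which 11.7% were higher and 8.89% lower. The smallest p-values there belonged to the spindle gene spdl1 (117 against 158, 162 and 159, +0.40, adjusted p = 0.0563), the cohesin gene stag2b (612 against 734, 716 and 705, +0.23, adjusted p = 0.0826) and the spindle gene dlgap5 (135 against 188, 179 and 165, +0.36, adjusted p = 0.0918). None of these 3 passed with all arrays.

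Among 20 genes of cell cycle inhibitors, cell cycle exit and other cyclin-dependent kinases, 1 rose and 0 fell, with a median of +0.07. The share called was 5%, near the 5.50% of all tested probe sets. The gene that rose was gadd45ga, whose product restrains Cdk1 and marks cells leaving the cycle in vertebrate embryos. It read 144 in wild type versus 229, 198 and 216 in the foggy arrays, a difference of +0.52 (SE 0.105, 1.43-fold, limma adjusted p = 0.0205), and passed without any 1 foggy array (4.34e-04, 0.00677 and 0.00970). The atypical cyclin gene ccng2, linked to arrest, read 424 against 507, 544 and 494 (+0.27, adjusted p = 0.0799). The antiproliferative gene tob1a read 105 against 81.9, 77.0 and 80.8 (-0.33, adjusted p = 0.179). The calls of slbp and gadd45ga, like that of kif5aa, did not hold with no variance trend or with the doubled SD.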

How the data were processed

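Per the labels, 1 wild-type and 3 foggy brain samples were hybridised to the zebrafish genome array. The authors deposited probe set intensity values, whose mean after trimming 2% at each end was 150.0 in each array, so they were used as scaled. A change shared by most transcripts is lost in such scaling. How probes were summarised is not given in the sources used here. Here 115 control probe sets were left out, 16.252 (the 20th percentile) was added, log2 was taken, and the 4651 probe sets with a mean under the 30th percentile were removed. Symbols came from the platform annotation, and 10718 of 10802 gene numbers matched the RefSeq table of GRCz12tu, all 117 members among them.

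limma 3.58.1 in R 4.3.3 (lmFit, eBayes with trend) compared foggy with wild type over 10851 probe sets, two-sided. The spread came from the foggy arrays (degrees of freedom 2 residual, 7.89 prior), which the single wild-type array is taken to share. A permutation of 4 arrays cannot give a p below 0.25. The script was tested on simulated data. Alternatives covered normalization, pseudocount, filter, variance model, wild-type spread, probe set averaging and each foggy array left out. The members and all lists were chosen with earlier results of these data known. Members given in every array were called or among the 10 smallest p, past the 1.2-fold rule, called without 1 array, or the extremes of their role. From the other lists came called genes and the 3 smallest p. Further values are those of well-known members. No batch is given in the labels. Motifs in promoters were not analysed here.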

Additional observations from a re-analysis of the deposited data

How the results depend on the processing

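The replication count of 0 calls ranged from 1 to 6 when 1 foggy array was left out, and stayed 0 under the 10 other settings. The mitosis count of 1 ranged from 0 to 8 without 1 foggy array and was 0 under quantile normalization, cyclic loess, a pseudocount of 50, no filter on dim probe sets, no variance trend and the doubled wild-type SD, and the cause was not tested. The counts for kinesins outside mitosis, further replication genes and inhibitors, each 1, were 0 in the fits with no variance trend or a doubled wild-type SD. Leaving out 1 foggy array gave 1 to 2 for those kinesins, 1 to 2 for further replication genes, 0 to 11 for further mitosis genes and 1 to 4 for inhibitors. The median difference of the mitosis genes was 0.053 to 0.116 in these fits. Over all tested probe sets the calls numbered 597, and 380 with no filter, 164 with no variance trend, 47 with the doubled wild-type SD and 2064 without foggy array 1. Of 79 genes 9 turned sign without 1 foggy array, namely gins4, ccne1, pcna, mcm4, mcm7, cdc20, mad2l2, plk3 and top2b, all with differences between -0.07 and 0.04 with all arrays. Among those with each setting computed, the sign turned for gins4, which ran from -0.073 to 0.214 without 1 foggy array (-0.033 without array 2), for ccne1, which ran from -0.0041 to 0.074, and for ccnd1 under cyclic loess (-0.0059). No paired analysis was possible because the groups share only replicate number 1 and its meaning is not stated. A single wild-type array stands behind every difference, and the number of arrays limits the precision.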

Other observations

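Some members differed more among the foggy arrays than between foggy and wild type. The gene gins4 had 82.8 in foggy array 1 against 123 and 131 in arrays 2 and 3, around the wild-type value of 107. The gene mad2l2 had 117, 76.4 and 91.1 around 90.6, and mcm7 had 414, 312 and 341 around 361. For such genes the 95% intervals were wide, from -0.41 to +0.48 for gins4 and from -0.37 to +0.45 for mad2l2, and the sign of all 3 turned when 1 foggy array was left out.

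The general proliferation marker mki67 read 453 in wild type versus 537, 478 and 451 in the foggy arrays (+0.10, limma adjusted p = 0.596). The transcription factor genes of the mitotic programme, foxm1 and mybl2b, read 79.2 against 91.6, 81.0 and 86.3, and 126 against 153, 154 and 154. Neither passed (limma adjusted p = 0.732 and 0.195). All foggy arrays were above the wild type in both, as in 36.2% of all tested probe sets. For the p53 target genes mdm2 and ccng1 the differences were -0.10 and +0.03, and these do not stand for all p53 targets. In the same list gadd45aa read 24.7 in wild type versus 34.1, 33.6 and 37.8 in the foggy arrays. Its difference of +0.33 did not pass (limma adjusted p = 0.307). All genes of this paragraph were picked from the lists after their values were seen.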
